A study of Mus musculus with 2 samples.

Results

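The transcripts of 10 genes of lipoprotein assembly were followed through 2 single-cell libraries of mouse primary hepatocytes: the apolipoprotein genes Apoa1, Apoa2, Apoa4, Apoa5, Apob, Apoc1, Apoc3, Apoe and Apom, and Mttp, which encodes the microsomal triglyceride transfer protein. They were picked by gene symbol from the 28692 genes listed for both libraries, and each symbol matched 1 gene ID. The hepatocytes came from C57BL/6 liver and were grown as 3-dimensional cultures in a gel of basement membrane proteins. The induction library was made from cells in a medium with 3 uM dexamethasone, a synthetic glucocorticoid. The expansion library was made from cells in a medium without dexamethasone, with 3 uM of the GSK3 inhibitor CHIR99021 and 100 ng/mL of the cytokine TNFa. Both media held HGF (50 ng/mL) and EGF (25 ng/mL) as growth factors, the ROCK inhibitor Y27632 at 10 uM, A83-01, which blocks TGF-beta receptors, at 1 uM, and nicotinamide (100 mM) with N-acetylcysteine (1.25 mM), and neither group was a freshly isolated or additive-free culture. The labels do not state how many animals or cultures went into a library, nor the days in culture. The comparison asked how these transcripts differed between the medium named for induction and the medium named for expansion.

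Apolipoproteins are the protein coats of the particles that carry lipid through blood, and the hepatocyte is the main source of most of them. Apolipoprotein B is the scaffold of very-low-density lipoprotein (VLDL): Mttp protein loads it with triglyceride in the endoplasmic reticulum, and the finished particle is secreted. Apolipoproteins A-I and A-II form the core of high-density lipoprotein (HDL), the C and E proteins move between particles and steer lipases and receptors, and apolipoprotein M carries sphingosine-1-phosphate on HDL.

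The genes lie at 6 places in the genome (GRCm38). Apoa1 (chr9:46228580-46230466), Apoc3 (chr9:46232933-46235636), Apoa4 (chr9:46240696-46243459) and Apoa5 (chr9:46268633-46271919) form a cluster on chromosome 9, with Apoc3 on the minus strand and the other three on the plus strand. Apoe (chr7:19696109-19699188) and Apoc1 (chr7:19689481-19692660) are neighbours on the minus strand of chromosome 7. Apoa2 (chr1:171225054-171226379) and Apob (chr12:7977648-8016835) lie alone on plus strands, and Apom (chr17:35128997-35132050) and Mttp (chr3:138089854-138144968) alone on minus strands. Apoa4, Apoa5 and Mttp overlap genes annotated on the opposite strand, and since no source states whether counting used strand, UMIs of Apoa4 and Mttp may include those of an overlapping partner.

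Stretches upstream of the annotated start are shown for the gene with the largest difference between the media (Apoa2, at both RefSeq starts), for the VLDL scaffold gene (Apob), for the 2 genes with the most UMIs of the set (Apoa1 and Apoe), and for the gene without a single UMI (Apoa5). They are RefSeq sequences of GRCm38.p6, read 5′ to 3′ along the gene, with matches to a searched motif in capitals: TATAAA, the TATA box, in the first Apoa2 stretch, in Apob and in Apoa5, and a match to ACANNNTGT, a loose form of the glucocorticoid response element, in the second Apoa2 stretch. They span chr1:171224804-171225053 and chr1:171221314-171221563 (Apoa2), chr12:7977427-7977647 (Apob), chr9:46228380-46228579 (Apoa1), chr9:46268358-46268607 (Apoa5), all on the plus strand, and chr7:19699189-19699438 on the minus strand (Apoe). The second Apoa2 stretch does not adjoin the annotated gene, which starts at chr1:171225054. It lies within the span of another gene, Tomm40l (chr1:171216011-171222514), and use of this start in these cells was not tested.
Apoa2, first start: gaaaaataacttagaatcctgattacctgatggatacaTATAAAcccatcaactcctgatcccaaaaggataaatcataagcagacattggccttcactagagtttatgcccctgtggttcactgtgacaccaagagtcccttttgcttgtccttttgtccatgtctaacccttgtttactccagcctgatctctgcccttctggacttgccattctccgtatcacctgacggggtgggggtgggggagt
Apoa2, second start: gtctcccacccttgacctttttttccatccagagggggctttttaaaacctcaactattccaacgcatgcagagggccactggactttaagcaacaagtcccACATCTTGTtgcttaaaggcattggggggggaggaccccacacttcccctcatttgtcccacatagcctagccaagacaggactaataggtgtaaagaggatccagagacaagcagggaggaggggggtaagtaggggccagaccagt
Apob: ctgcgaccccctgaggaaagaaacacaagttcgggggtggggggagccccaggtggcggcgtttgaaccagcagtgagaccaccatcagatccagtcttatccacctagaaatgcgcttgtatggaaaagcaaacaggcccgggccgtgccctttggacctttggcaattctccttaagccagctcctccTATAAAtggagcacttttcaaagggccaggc
Apoa1: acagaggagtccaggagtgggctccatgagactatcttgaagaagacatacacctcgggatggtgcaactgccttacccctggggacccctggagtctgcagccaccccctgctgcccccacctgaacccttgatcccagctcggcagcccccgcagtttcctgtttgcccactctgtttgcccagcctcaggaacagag
Apoe: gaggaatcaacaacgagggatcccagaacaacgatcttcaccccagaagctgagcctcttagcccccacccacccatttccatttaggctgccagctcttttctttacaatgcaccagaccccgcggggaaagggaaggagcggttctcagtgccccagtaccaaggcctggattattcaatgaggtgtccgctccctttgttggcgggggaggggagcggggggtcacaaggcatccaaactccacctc
Apoa5: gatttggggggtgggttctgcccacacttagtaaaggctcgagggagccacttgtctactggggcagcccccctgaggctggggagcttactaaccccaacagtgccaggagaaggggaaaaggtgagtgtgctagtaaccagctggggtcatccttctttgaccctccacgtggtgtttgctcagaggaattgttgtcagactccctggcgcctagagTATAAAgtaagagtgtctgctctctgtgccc

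For 8 of the 10 genes, 12 windows of 300 bases (250 before and 50 after a start) were at hand; Apoc1 and Apoc3 had none. A match to 7 short motifs was sought on both strands. TATAAA was found in 5 of the 12 windows, and 13.6% of all 32851 windows hold it. These were windows of 4 genes: Apoa2 (212 bases before the first start), Apoa5, Apob (60 bases before the start) and, at the second start only, Apoe. The Apoa5 windows overlap and share the same site. ACANNNTGT was found once, 148 bases before the second Apoa2 start, which lies away from the annotated gene, against 6.85% of all windows. The nuclear receptor site GGNCANAGG was found once, just after the first Apoe start, against 8.46% of all windows. CAAAGTCC (a core of HNF4 sites), GTTAATNAT (HNF1), TTGCNCAA (C/EBP) and GGGANTTCC (NF-kB) were found in none of the 12 windows and in 1.42%, 0.801%, 2.94% and 1.68% of all windows. A match is a string of letters and not a binding site, and a missing match says only that these letters are not in the window; the GGNCANAGG and CAAAGTCC motifs can overlap.

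The induction library held 1275 cell barcodes and 9305593 UMIs (unique molecular identifiers, each counting 1 captured transcript), and the expansion library held 1208 barcodes and 29545561 UMIs. After removal of barcodes with under 500 genes or over 25% mitochondrial UMIs, 1245 induction cells and 1191 expansion cells remained, with a median of 6765 and 23184 UMIs per cell. The 3.43-fold gap in UMIs per cell was met by giving levels as counts scaled to the total of their library (CPM). For shares of cells, per-cell counts and correlations each cell was thinned to 2000 UMIs unless stated, which left out 14 induction cells. Cells with G2/M transcripts were also chosen after thinning. Clusters, Xist and Y-linked classes, quartiles and the CPM of any group of cells used all UMIs and were not matched in depth. The 2 libraries shared 4 barcode sequences. All 12 hepatocyte markers were found in both libraries, at 57032 CPM in the induction library and 38130 CPM in the expansion library. Of 48 markers of 9 other cell types, those of macrophages summed to 0.869 and 1.77 CPM in induction and expansion medium (Adgre1, Clec4f, C1qa and Ptprc at 0 in both), and those of enterocytes, which also make Apoa1, Apoa4, Apob and Mttp, to 8.59 and 11.6 CPM. Cholangiocyte markers summed to 92.6 and 126 CPM, with Sox9 the most abundant and Krt7 at 0. Because each medium had 1 library, differences between the media have neither replicates nor a test behind them, and the agents that differ between the media cannot be told apart. All intervals are 95% intervals of counting error only, and less RNA per cell and fewer cells expressing a gene cannot be told apart in a summed level.

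Of the 10 genes, 9 were measured (at least 10 CPM in the higher library). In induction medium 6 of these were at least 2-fold higher than in expansion medium, with a counting interval that excluded a ratio of 1: Apoa2, Apoa4, Apoc3, Apoc1, Mttp and Apob. None was 2-fold lower, and Apoe, Apoa1 and Apom stayed within 2-fold. Over all 7220 measured genes, 9.17% were higher and 3.17% lower by the same rule. The median log2 ratio (induction over expansion) of the 9 genes was 2.02, and that of all measured genes was 0.21. The median gene, taken over genes that had 50 UMIs or more in each library, stood at a log2 ratio of 0.22, and relative to it the counts were again 6 higher and 0 lower. The 10 genes together held 2.52% of all UMIs in the induction library and 1.13% in the expansion library, a 2.23-fold difference (log2 ratio 1.16, 1.15 to 1.16).

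**Figure D1:**
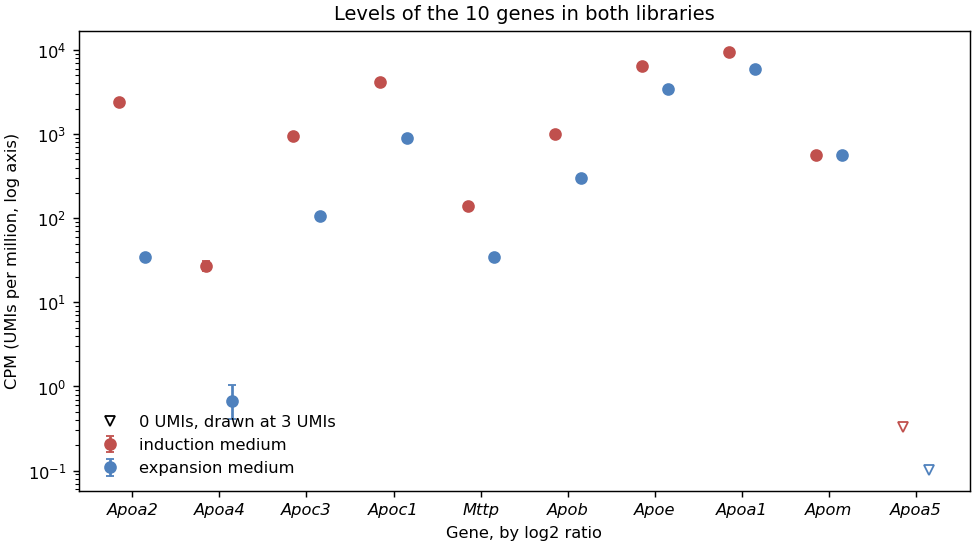
CPM of each gene in the induction library (red) and the expansion library (blue) on a log axis, ordered by log2 ratio, with 95% counting intervals, most of them smaller than the points. Apoa2 stands at 2385 and 34.5 CPM and Apom at 570 and 563 CPM in induction and expansion medium; Apoa5, without UMIs, is drawn as a triangle at the level of 3 UMIs.

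Among the HDL core proteins, Apoa1 and Apoa2 parted. Apoa2, the second most abundant protein of HDL, had 21946 UMIs in the induction library and 1014 in the expansion library, which is 2385 CPM (2354 to 2417) against 34.5 CPM (32.4 to 36.7). This is a 69.1-fold difference (log2 ratio 6.11, 6.02 to 6.20), and 26 of the 7220 measured genes had a larger one. Apoa1, the activator of the cholesterol-esterifying enzyme Lcat, had 86246 and 174792 UMIs, or 9373 and 5947 CPM, in induction and expansion medium. Its log2 ratio was 0.66 (0.64 to 0.67), and 18.1% of measured genes had a larger one. Apom had 570 CPM (555 to 586) in the induction library and 563 CPM (554 to 571) in the expansion library, a log2 ratio of 0.02 (-0.03 to 0.06), and the counting intervals of the levels overlapped. Relative to the median gene the Apom ratio was -0.20.

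In the VLDL pathway both the scaffold and its loading protein were higher in induction medium. Apob had 9279 UMIs in the induction library and 8897 in the expansion library although the expansion library held more UMIs in all, which is 1008 CPM (988 to 1029) against 303 CPM (296 to 309), a log2 ratio of 1.74 (1.69 to 1.78). Mttp had 1283 and 1010 UMIs, or 139 CPM (132 to 147) and 34.4 CPM (32.3 to 36.6), in induction and expansion medium, a log2 ratio of 2.02 (1.90 to 2.14). In fold terms this is 3.33 for Apob and 4.06 for Mttp.

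The exchangeable C and E proteins differed in graded size. Apoc3, an inhibitor of lipoprotein lipase and of remnant uptake, had 8698 UMIs in the induction library and 3139 in the expansion library, or 945 CPM (925 to 965) against 107 CPM (103 to 111), a log2 ratio of 3.15 (3.09 to 3.21). Apoc1, which hinders remnant uptake and inhibits the plasma cholesteryl ester transfer protein in humans, had 38753 and 26120 UMIs, or 4211 and 889 CPM, in induction and expansion medium, a log2 ratio of 2.24 (2.22 to 2.27). Apoe, the main ligand by which remnants are taken up, had 59986 and 100480 UMIs, or 6519 and 3419 CPM. Its log2 ratio of 0.93 (0.92 to 0.95) fell just short of 2-fold. Apoe and Apoc1 lie next to each other, and their log2 ratios differed by more than their counting intervals.

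The remaining genes of the chromosome 9 cluster were rare or absent. Apoa4, an apolipoprotein of intestinal particles that the mouse liver also makes, had 249 UMIs in the induction library and 20 in the expansion library, or 27.1 CPM (23.8 to 30.6) against 0.681 CPM (0.416 to 1.05), a log2 ratio of 5.31 (4.66 to 6.05). Apoa5, a liver apolipoprotein that promotes lipolysis of triglyceride, had 0 UMIs in 1231 thinned induction cells and 1191 expansion cells, and 0 UMIs without thinning as well. Counted as 3 cells of the thinned total, this allows shares of cells with a UMI of up to 0.244% and 0.252%, and it sets no limit on cells that express the gene at too low a level to give a UMI. The limit for its level, 3 UMIs, was 0.326 CPM in the induction library and 0.102 CPM in the expansion library. Within 1 cluster of 4 genes, the log2 ratio was thus 5.31 for Apoa4, 3.15 for Apoc3 and 0.66 for Apoa1, and undefined for Apoa5.

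The genes next to the 10 were followed as well. Of 50 protein-coding neighbours within 100 kb, 24 were measured, 0 were higher by the 2-fold rule and 4 were lower in induction medium, where 9.17% and 3.17% of all measured genes were higher and lower. Their median log2 ratio was -0.01 (range -1.12 to 0.84). Zpr1, which lies 1145 bp from Apoa5 and encodes a zinc finger protein, had 24.3 CPM in the induction library and 21.2 CPM in the expansion library. Tomm40, a mitochondrial import channel gene 2125 bp from Apoe, had 53.7 and 61.1 CPM, and Tomm40l, 2540 bp from Apoa2, had 17.2 and 13.7 CPM, in induction and expansion medium. Under the level limit of 10 CPM, 2 other genes near Apoa2 were higher in induction medium. Fcer1g, 3193 bp away, had 8.48 and 0.817 CPM in induction and expansion medium (log2 ratio 3.38, 2.70 to 4.10). Nr1i3, 4353 bp away, had 7 and 1 UMIs, too few for a firm ratio. The 4 lower neighbours were Apoc2 (5.65 and 12.2 CPM) and the adhesion gene Bcam (24.5 and 50.0 CPM) near Apoc1, and Ddah2 (4.89 and 10.3 CPM) and the cytokine gene Ltb (151 and 323 CPM) near Apom. The second gene ID listed under the symbol Apoc2 overlaps Apoc2 and Apoc4 and had 0 UMIs in both libraries; how UMIs from the overlap were counted is not stated.

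Cell by cell, more of the genes were found in an induction cell. Of the 10 genes, the median induction cell held UMIs of 6 and the median expansion cell of 4, each at 2000 UMIs. The summed count of the 10 genes had a median of 45 UMIs in induction cells (15 to 98 between the outer deciles, highest 216) and of 18 UMIs in expansion cells (5 to 41, highest 137). No UMI of any of them was found in 9 induction cells and 6 expansion cells.

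Apoa1 was found in 97.5% of induction cells (96.4 to 98.3) and 94.0% of expansion cells (92.4 to 95.2), and Apoe in 96.3% (95.1 to 97.3) and 95.3% (93.9 to 96.4). A UMI of each was therefore found in nearly all cells of either medium, as was one of the transferrin gene Trf (99.7% in each). The part of free RNA in these shares was not tested, so they are not shares of expressing cells. Apoc1 was found in 92.9% of induction cells and 72.8% of expansion cells, Apob in 81.2% and 43.7%, and Apoc3 in 53.9% and 13.7%. The widest gap was that of Apoa2, found in 66.0% of induction cells (63.3 to 68.7) and 4.53% of expansion cells (3.42 to 5.87). Mttp was found in 24.6% and 6.97% of induction and expansion cells, Apom in 48.9% (46.1 to 51.7) and 44.1% (41.2 to 47.0), and Apoa4 in 3.57% and 0.168%. Without thinning the shares for Apoa2 were 84.6% and 29.2%, for Apoc3 77.7% and 63.9%, for Mttp 59.8% and 48.4%, for Apom 72.2% and 89.5% and for Apoa4 10.1% and 1.68%, in induction and expansion cells, so that the order of the media for Apom turned with depth. Unthinned, Apoa1, Apob, Apoc1 and Apoe were found in 96.2% to 100% of the cells of either medium.

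Free RNA can put a UMI into a cell that does not express the gene. Both Xist and Y-linked transcripts were found in each library, so cells of both sexes were present, and each should lack the transcripts of the other. Y-linked UMIs were found in 1.21% of 330 induction cells with at least 2 Xist UMIs, against 19.2% of all induction cells, and in 1.53% of 262 such expansion cells, against 14.9% of all expansion cells, at 2000 UMIs per cell. Xist was found in 0 of 37 induction cells and 0 of 19 expansion cells with at least 2 Y-linked UMIs. At full depth, 22 of 1245 induction cells and 275 of 1191 expansion cells held both Xist and Y-linked UMIs, so that the unthinned shares of expansion cells given above cannot be read as shares of expressing cells. Apoa4 was found in 2 expansion cells after thinning (0.168%), and without thinning in 20 cells (1.68%) with 1 UMI each. The share of mismatched Y-linked UMIs holds for the Y-linked genes at their own level and sets no limit for Apoa4. No expression of Apoa4 in expansion cells is read from these counts.

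**Figure D2:**
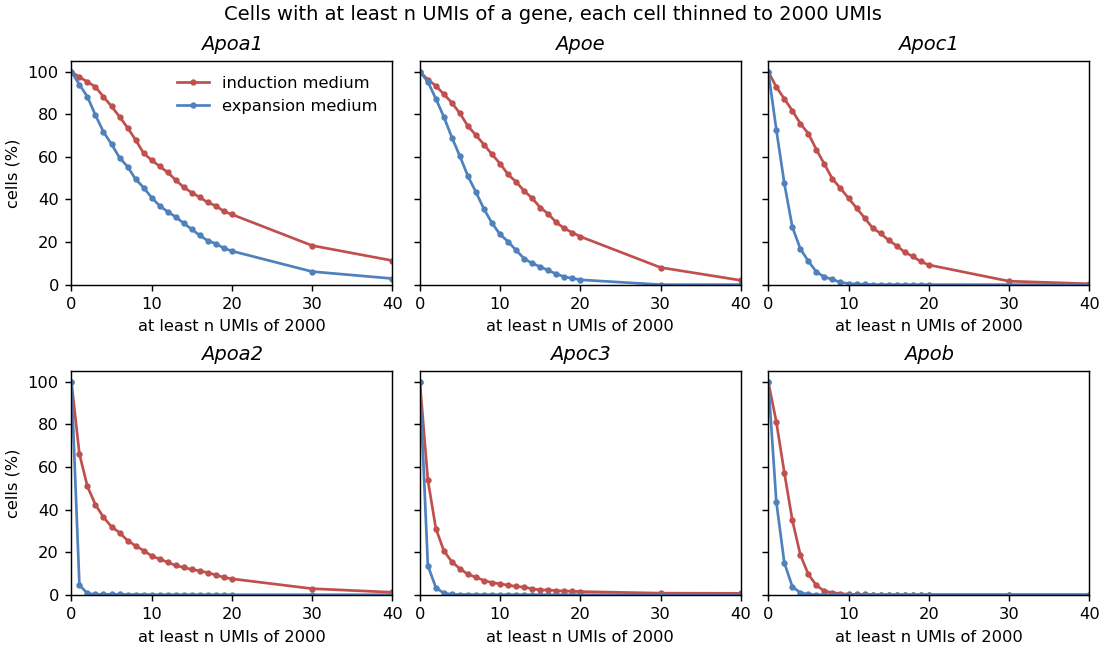
Share of cells (percent) with at least n UMIs of a gene after thinning each cell to 2000 UMIs, for 6 genes in the induction library (red) and the expansion library (blue). At 1 UMI the Apoa1 curves stand at 97.5% and 94.0% in induction and expansion cells, and for Apoa2 and Apoc3 the induction curve has a long tail that the expansion curve lacks.

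The genes differed in how evenly they were spread over cells. Apoc1 had a median of 7 UMIs per induction cell and 1 per expansion cell, Apoe of 11 and 6, and Apoa1 of 12 and 7. Apob was spread almost as counting alone would give, with a variance over mean (Fano factor, 1 for pure counting) of 1.48 in induction cells and 1.18 in expansion cells, and Mttp had a Fano factor of 1.08 in induction cells. Apoa2 was uneven in the induction library, with a median of 2 UMIs, a top decile that began at 17, a highest count of 71 and a Fano factor of 13.9, and the top decile of cells held 50.2% of its UMIs. Among the 8 genes found in at least 20% of induction cells, Apoc3 had the highest Fano factor, 17.1, with a median of 1 UMI and a highest count of 84. The top decile of cells held 63.3% of its UMIs. In the expansion library the highest Apoc3 count was 6 and the Fano factor 1.49, at a mean of 0.181 UMIs. There the top decile of cells held 80% of the Apoc3 UMIs. Apom had Fano factors of 2.37 and 2.44, and Apoa1 of 16.9 and 11.9, in induction and expansion cells.

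The tail of Apoc3 came from few cells, which also held much of the Apoa4. At least 20 Apoc3 UMIs of 2000 were found in 18 induction cells and in 0 expansion cells; the limit was set after the counts had been seen, and 1.46% of induction cells lay above it and 2.27% above a limit of 15. These 18 cells held 19.7% of the Apoc3 UMIs of the induction library and 30.5% of its Apoa4 UMIs. Apoa4 stood at 781 CPM in them and at 17.2 CPM in the other induction cells. Apoa2 stood at 8168 and 2320 CPM, Apoa1 at 23200 and 9212 CPM, Apoc1 at 8363 and 4163 CPM, and Alb, the albumin gene, at 38735 and 19232 CPM, in the 18 cells and the others. Apob (1038 and 1009 CPM), Mttp (154 and 139 CPM) and Apom (729 and 568 CPM) differed less. The 18 cells had a median of 4733 UMIs, against 6824 UMIs in the others, and the part of this depth gap in the values was not tested. Of the 18, 11 held Xist UMIs and 4 held Y-linked UMIs. Without them the log2 ratio of Apoc3 between the media was 2.84. Apoa4 as a whole rested on few cells: its 249 induction UMIs lay in 126 cells, 98 of them in the top 8 cells and 35 in a single cell.

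Clusters were found in each library without use of the 10 genes, Xist or Y-linked genes, and are given by number and leading genes. In the induction library, cluster 6 (93 cells, led by Sprr1a, S100a6, Spp1, Serpine2 and Anxa3) had the lowest level of each of the 9 detected genes. Apoa2 stood at 53.5 CPM there, against 4234 CPM in cluster 2 (291 cells, led by the acute-phase genes Saa2, Saa1 and Orm1, then Serpina3k and Orm2). Apoc1 stood at 318 CPM in cluster 6 and 7415 CPM in cluster 3 (223 cells, led by Slc22a30, Tat, Slco1b2, H19 and Cps1), and Apoc3 at 54.6 CPM in cluster 6 and 1760 CPM in cluster 3. Apoa1 had the smallest spread of these, from 4685 CPM in cluster 6 to 18310 CPM in cluster 2. The UMI share of the 12 hepatocyte markers was lowest in cluster 6 as well, at 2.12%, and highest in cluster 2, at 8.60%; its part in these differences was not tested. With the members, Xist and Y-linked genes used for clustering, another induction cluster had the lowest Apoa1 (730 CPM), Apoe (243 CPM), Apob (97.4 CPM) and Apom (0 CPM). With finer clusters (resolution 1.0), the highest Apoc3 level of an induction cluster was 4786 CPM and the highest Apoa2 level 6807 CPM.

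The VLDL genes peaked in another cluster of the induction library than the HDL genes Apoa1, Apoa2 and Apom, but the split was not complete. Apob and Mttp were highest in cluster 1 (317 cells, led by the lipogenic genes Thrsp and Scd1, then Ppp1r3b, Acaca and Pank1), at 1464 and 203 CPM. In the same cluster Apom stood at 338 CPM and Apoa1 at 6640 CPM, while Apoa2 stood at 3693 CPM, the level next below its highest. Mttp also stood at 187 CPM in cluster 3, near its highest level. Apoa1, Apoe (9247 CPM), Apom (1036 CPM) and Apoa2 (4234 CPM) were highest in cluster 2, where Apob stood at 1019 CPM and Mttp at 137 CPM. Apoa4 was highest in cluster 3, at 90.7 CPM, against 1.07 CPM in cluster 6, a level of 1 UMI or near it. With finer clusters its highest level was 296 CPM, in the same cluster as the highest Apoc3. With the members, Xist and Y-linked genes used for clustering, its highest level was 341 CPM. That level lay in the induction cluster with the lowest Apoa1, Apoe, Apob and Apom of that clustering, so the place of the Apoa4 peak depended on the clustering. Cluster 3 was also the one with the most Xist: 97.3% of its cells held Xist and no Y-linked UMI.

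In the expansion library Apoa1, Apoe and Apom were again highest in a cluster led by Saa and Orm genes, and Apoa2, Apob, Apoc1, Apoc3 and Mttp were highest in clusters with other leading genes than in the induction library. Cluster 3 (234 cells, led by Saa1, Saa2, Orm1, Orm2 and Fabp1) had the highest Apoa1 (10015 CPM), Apoe (4906 CPM), Apoc1 (1411 CPM), Apoc3 (197 CPM) and Apom (1236 CPM). Cluster 4 (153 cells, led by H19, Slc6a14, Igf2, Cml2 and Gjb2) had the highest Apob (499 CPM), Mttp (55.0 CPM) and Apoa2 (127 CPM). Cluster 7 (26 cells, led by S100a6, Sprr1a, Hmga2, Anxa3 and Axl) had the lowest Apoa1 (519 CPM), Apoe (390 CPM), Apoc1 (57.7 CPM) and Apom (48.1 CPM), and its share of hepatocyte marker UMIs was 0.384%. These low values rest on that cluster of 26 cells: with the members, Xist and Y-linked genes used for clustering, the lowest values of an expansion cluster were 2930 CPM for Apoa1, 1975 CPM for Apoe, 258 CPM for Apoc1 and 141 CPM for Apom. The highest Apoa2 level of an expansion cluster, 127 CPM, was thus above the lowest of an induction cluster, 53.5 CPM, and lay below those of the other 6 induction clusters. Clusters were found separately in each library, so that equal numbers do not stand for matching cells.

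**Figure D3:**
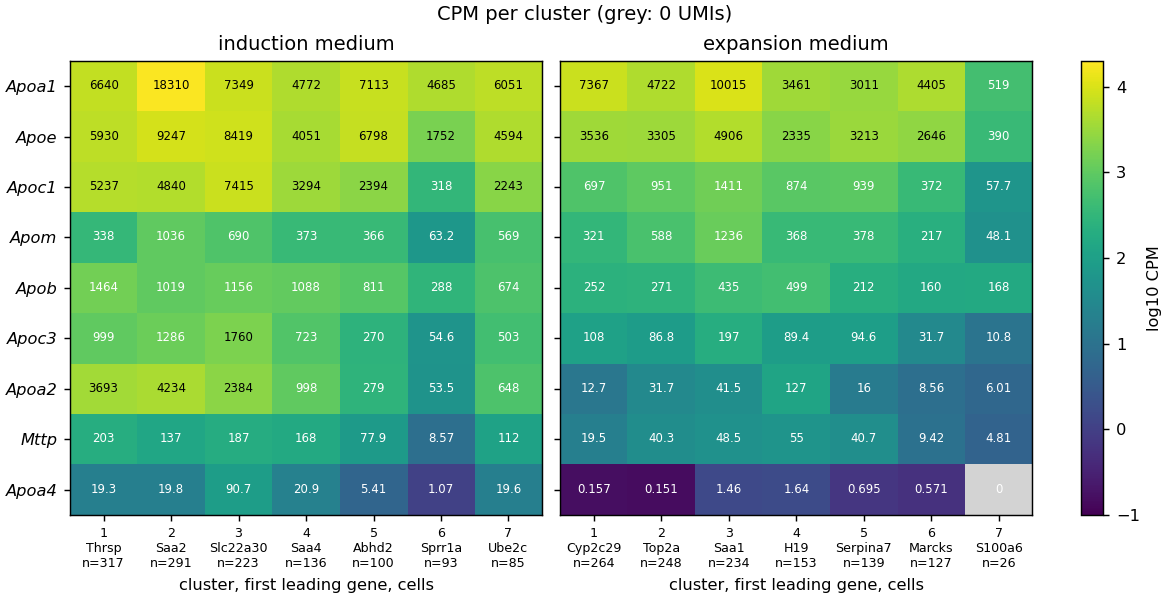
CPM of 9 genes (rows) in the 7 clusters of the induction library (left) and the 7 clusters of the expansion library (right), coloured on a log10 scale, with the first leading gene and the number of cells of each cluster. Induction cluster 6 has the lowest value in every row of its panel, from 4685 CPM for Apoa1 to 1.07 CPM for Apoa4.

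Cells with G2/M transcripts, which mark the end of the cell cycle, were lower in Apoa2 than other cells of the induction library. The 72 induction cells with at least 2 G2/M genes had 654.9 CPM of Apoa2, against 2626 CPM in induction cells with none, and the 102 such expansion cells had 37.9 CPM, against 35.4 CPM in expansion cells with none. Between the media, the log2 ratio of Apoa2 was 4.11 (3.80 to 4.43) in cells with at least 2 G2/M genes and 6.22 (6.11 to 6.32) in cells with none. Apoc1 had log2 ratios of 1.26 and 2.35 in these classes, and Apom of 0.05 and 0.07. The differences between classes were not tested. The induction cells of the G2/M class had a median of 9985 UMIs, against 6649 in those with none, and the part of this gap was not tested.

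Cells with more hepatocyte marker UMIs had more of most members. From the lowest to the highest quartile of the marker share, Apoa1 stood at 4300, 6486, 9414 and 16447 CPM in the induction library, and at 1874, 4328, 7308 and 10368 CPM in the expansion library. Apom stood at 248, 410, 590 and 987 CPM in the induction library and at 128, 438, 713 and 980 CPM in the expansion library, and the 2 series overlapped. Apob levelled off after the first quartile in the induction library, at 679, 1177, 1141 and 1064 CPM, and went on to the last one in the expansion library, at 158, 271, 346 and 439 CPM. In every quartile Apoa2 was higher in the induction library, with 1513, 2158, 2732 and 3094 CPM against 15.9, 32.5, 54.8 and 33.7 CPM.

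The number of UMIs per cell went with some members in opposite ways. In induction cells, from the lowest to the highest quartile of UMIs per cell, Apoc3 stood at 1737, 1090, 886 and 661 CPM, and Apoa2 at 3293, 2933, 2675 and 1645 CPM. In expansion cells Apoc3 stood at 65.9, 85.5, 93.6 and 142 CPM over the same quartiles, and Apoa2 at 24.9, 29.0, 29.0 and 44.7 CPM. The order of the levels thus ran down in the induction library and up in the expansion library for these 2 genes. Apoa1 ran up in both, from 7522 to 10392 CPM in induction cells and from 3821 to 7571 CPM in expansion cells. The lowest quartile of expansion cells (median 14517 UMIs) was deeper than the highest of induction cells (median 11259 UMIs), so no quartile matched in depth.

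Cells with Xist and no Y-linked UMI (Xist cells) and cells with Y-linked UMIs and no Xist (Y cells) were compared within each library. These classes were set on all UMIs without thinning, so they depend on depth. There were 412 and 503 of them in the induction library, where 22 cells held both and 308 neither, and 325 and 505 in the expansion library, where 275 held both and 86 neither; mixed and empty cells were left out. In the induction library Apoa4 stood at 49.2 CPM in Xist cells and 13.9 CPM in Y cells (log2 ratio of Xist over Y cells 1.82, 1.37 to 2.29), Apoc1 at 4915 and 3586 CPM and Apoa1 at 7514 and 10112 CPM. In the expansion library Apoa1 stood at 4732 and 6209 CPM and Apoc1 at 780 and 931 CPM, so that Apoa1 was lower in Xist cells in both libraries and Apoc1 turned. Apoa2 and Apoe turned as well. Their log2 ratios of Xist over Y cells were -0.34 and 0.70 for Apoa2, and 0.21 and -0.27 for Apoe, in the induction and expansion library. Between the media, the log2 ratio of Apoe was 1.19 in Xist cells and 0.71 in Y cells, that of Apom 0.45 and -0.02, and that of Apoc1 2.66 and 1.95. Apoe was past the 2-fold limit in Xist cells only, and every other measured member kept its side of the limit in both kinds of cells. Cells of 1 sex may come from 1 animal, and the number of animals is not known, so sex and animal cannot be told apart.

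Members varied together across the cells of a library to different degrees. As a description, Pearson correlations of log-scaled counts at 2000 UMIs were taken over 1231 induction cells for the 8 members found in at least 20% of them, and over 1191 expansion cells for 5 members; cells of a library share its chemistry and free RNA. The 28 pairs of the induction library had a median correlation of 0.20 (range -0.02 to 0.56), and the 10 pairs of the expansion library of 0.28 (0.03 to 0.48). Apoa1 and Apoe had the highest value in each library, 0.56 in induction cells and 0.48 in expansion cells, though they lie on different chromosomes. Apoe and its neighbour Apoc1 had 0.53 and 0.30, and Apoa1 and Apom 0.45 and 0.46, in induction and expansion cells. Apoa2 and Apoc1 had 0.44 in induction cells. Apob and Mttp, the partners in VLDL assembly, had 0.12 in induction cells, a weak value at these counts from which nothing is read.

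**Figure D4:**
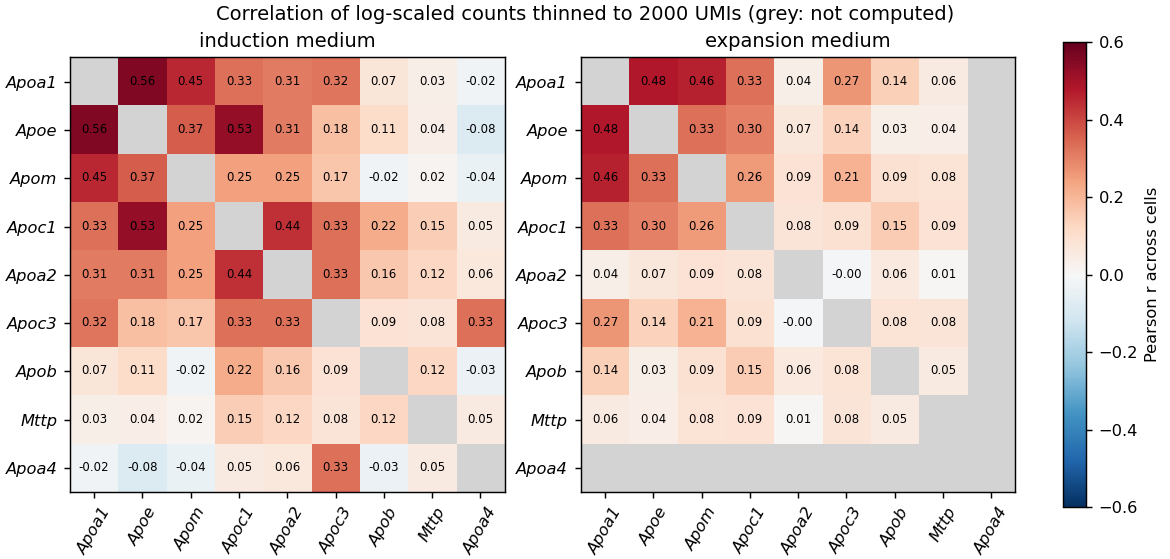
Pearson correlation across cells for pairs of genes in the induction library (left) and the expansion library (right), on log-scaled counts thinned to 2000 UMIs. Apoa1 and Apoe have the deepest red in both panels, 0.56 and 0.48. Pairs with a gene found in under 20% of cells are drawn but were not counted, since low counts limit correlations. Most of these are near 0, but Apoa4 and Apoc3 have 0.33 in induction cells and Apoa1 and Apoc3 0.27 in expansion cells.

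The genes whose counts were most like those of a member were mostly other plasma protein genes. Over 1971 genes in induction cells, Apoa1 was most like Ttr (transthyretin, correlation 0.64), Hp (haptoglobin, 0.62) and Dbi (0.54), and over 1668 genes in expansion cells most like Hp (0.66), Lcn2 (0.60) and Ahsg (0.59). Apoe was most like Hp in both, at 0.60 in induction cells and 0.57 in expansion cells. Hp itself differed little between the media, with 15431 CPM in the induction library and 15199 CPM in the expansion library. Apom was most like Ttr (0.41) in induction cells and the acute-phase gene Saa3 (0.47) in expansion cells. Apoa2 was most like Wfdc21 (0.49), Dbi (0.48) and the drug-metabolising enzyme gene Cyp3a11 (0.47), and Apoc1 was most like Cyp3a11 (0.50), in induction cells. Apoc3 was most like Cps1 (0.34), a urea cycle enzyme gene, and Apob most like Scd1 (0.34), the stearoyl-CoA desaturase gene. The values for Mttp reached 0.17 at most, with Cyp3a11.

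Other genes of lipoprotein metabolism were followed as 8 lists, in which the same 2-fold rule and the same background of 9.17% higher and 3.17% lower apply. Among 13 other apolipoproteins, 8 were measured, 3 were higher and 2 lower in induction medium, with a median log2 ratio of 0.51. Apoh, a phospholipid-binding plasma protein, had 849 CPM in the induction library and 121 CPM in the expansion library (log2 ratio 2.81, 2.75 to 2.86). Apon (59.7 and 11.4 CPM) and Apof (123 and 39.0 CPM) were higher as well. Clu, clusterin or apolipoprotein J, was lower, with 2471 CPM in the induction library and 7202 CPM in the expansion library (log2 ratio -1.54, -1.56 to -1.52). Apoc2, the activator of lipoprotein lipase, was lower as well, on 52 UMIs in the induction library and 360 in the expansion library. How UMIs from its overlap with the second gene ID under this symbol were counted is not stated.

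Of 16 genes of VLDL assembly and secretion, 14 were measured, 4 were higher and 0 lower, with a median log2 ratio of 0.40. The higher ones were Tm6sf2 (25.5 CPM in the induction library and 7.72 CPM in the expansion library), which takes part in lipid loading of VLDL, Sec24a (101 and 37.2 CPM) and Sar1b (188 and 74.9 CPM), both of the COPII coat that carries cargo out of the endoplasmic reticulum, and Cideb (51.2 and 23.4 CPM), a lipid droplet protein of VLDL lipidation. P4hb, the partner subunit of Mttp in the transfer protein, differed little, at 843 and 769 CPM in induction and expansion medium (log2 ratio 0.13), while Mttp itself had 139 and 34.4 CPM. With ratios set against the median gene, 3 were higher and 1, the sorting receptor gene Sort1, was lower. Of the 3 genes of apoB mRNA editing, the editing enzyme Apobec1 (18.7 and 24.8 CPM) and its cofactor Rbm47 (64.1 and 50.1 CPM) stayed within 2-fold, and A1cf (8.48 and 1.97 CPM) was under the level limit.

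Of 12 lipoprotein receptors and their regulators, 10 were measured, 1 was higher and 0 were lower, with a median log2 ratio of 0.34. The higher one was Lrp1, a remnant receptor, with 276 UMIs in the induction library and 219 in the larger expansion library (log2 ratio 2.01, 1.75 to 2.27). Scarb1, the HDL receptor gene, had 44.7 and 56.7 CPM in induction and expansion medium. Lsr, the lipolysis-stimulated receptor gene and the one with the most UMIs of the list, had 358 and 208 CPM, and Vldlr 13.9 and 8.95 CPM. Of 8 genes of HDL formation and sterol export, 4 were measured and 1 was higher, with a median log2 ratio of 0.46: Npc1, a lysosomal cholesterol exporter, had 49.6 and 22.7 CPM, and was within 2-fold relative to the median gene. The others were Abca1 (155 and 142 CPM), which lipidates apolipoprotein A-I, Lcat (65.3 and 37.9 CPM) and Npc2 (226 and 330 CPM).

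The lipase list held angiopoietin-like inhibitors of lipoprotein lipase that were higher in induction medium. Of 15 genes, 8 were measured, 4 were higher and 0 lower, with a median log2 ratio of 1.26. Angptl8 had 221 CPM in the induction library and 24.1 CPM in the expansion library (log2 ratio 3.20, 3.07 to 3.32), and Angptl4 had 61.1 and 7.04 CPM (log2 ratio 3.12). The lipase Aadac (41.3 and 12.0 CPM) was higher as well. Lpl, the lipoprotein lipase gene, differed little, with 1144 CPM in the induction library and 1237 CPM in the expansion library (log2 ratio -0.11, -0.14 to -0.08). Of 8 genes of triglyceride synthesis, 5 were measured, 4 were higher and 0 lower, with a median log2 ratio of 1.75. Dgat2, which makes triglyceride from diacylglycerol, had 539 and 160 CPM, and Lpin2 (88.5 and 16.6 CPM), Lpin1 (96.0 and 24.9 CPM) and Agpat2 (217 and 71.4 CPM) were higher too, while Dgat1 had 11.6 and 8.54 CPM, in induction and expansion medium.

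Of 26 transcription factors known to act on apolipoprotein genes, 22 were measured, 7 were higher and 0 lower, with a median log2 ratio of 0.47. Creb3l3, a liver membrane-bound factor that acts on Apoa4 and Apoc2 in mice, had 26.5 CPM in the induction library and 1.46 CPM in the expansion library (log2 ratio 4.18, 3.71 to 4.68). Rxra, a partner of many nuclear receptors, had 100 and 20.4 CPM, Mlxipl, which responds to carbohydrate, 106 and 32.6 CPM, and Hnf4a, a master regulator of hepatocyte genes, 250 and 93.4 CPM (log2 ratio 1.42). Nr3c1, the glucocorticoid receptor gene, had 48.3 and 36.8 CPM (log2 ratio 0.39, 0.23 to 0.55). With ratios set against the median gene, 6 were higher and 1 was lower, Nr0b2, with 7.93 CPM in the induction library and 15.9 CPM in the expansion library. Levels of these factors are transcript levels and were not set against binding.

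**Figure D5:**
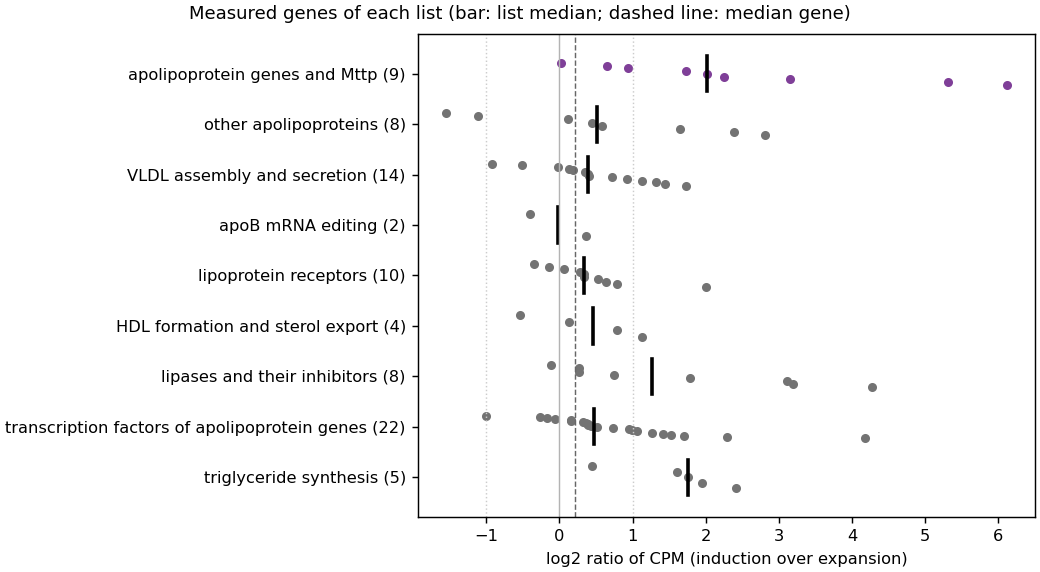
Log2 ratio of CPM (induction over expansion) of each measured gene (points) in the 10-gene set (top row, purple) and the 8 lists (grey), with the number measured in brackets, list medians as black bars, a dashed line at the median gene (0.22) and dotted lines at 2-fold. The 9 measured genes of the set span 0.02 to 6.11 with a median of 2.02, and the list medians run from -0.02 for apoB mRNA editing to 1.75 for triglyceride synthesis.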

How the data were processed

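Per the labels' protocols, cells were captured on the 10x Chromium system. The authors deposited UMI counts for each gene in each barcode, as raw whole numbers. Cell Ranger 2.1.1 and mm10 are named in the submitters' processing notes. How cells were called, and on which annotation, is not given in the sources. The groups are the media in the labels, with 1 library each.

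Cells with at least 500 genes and at most 25% mitochondrial UMIs were kept, which left out 30 induction and 17 expansion barcodes. Counts were summed per library and scaled to CPM with exact Poisson intervals. Log2 ratios carry exact conditional binomial intervals and shares of cells exact Clopper-Pearson intervals. A gene was called higher or lower when the higher library had at least 10 CPM, with a fold of at least 2 and an interval excluding a ratio of 1. PCR and capture error are not covered. Each cell was thinned to 2000 UMIs (seed 1) for shares, per-cell counts and correlations. Clusters were found per library by the Leiden method (igraph 0.11.9, scanpy 1.11.5; resolution 0.6, 20 principal components of 2000 variable genes, 15 neighbours). Doublets were kept; Scrublet marked 2 induction and 4 expansion cells. Positions are from GENCODE M21 (GRCm38), in which 28339 of 28692 IDs were found, and upstream sequences from RefSeq. The ratio and thinning code was tested on simulated counts. Python 3.11.15, numpy 2.4.6, scipy 1.17.1, pandas 2.3.3 and matplotlib 3.10.9 were used.

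The 10 genes and all lists were chosen with earlier results of these data known. Named by rule were the 10 genes, for each list the gene with the highest mean CPM and the 3 with the largest log2 ratio (all in lists of 5 or fewer measured genes), the 3 genes most like each member, 5 leading genes per cluster, markers, and neighbours within 100 kb. Cideb, Aadac, A1cf, Scarb1, Sort1, Nr0b2, Nr3c1 and Surf4 were named after their values were seen. Not every gene that the rule picks is reported here. Alternatives were other cell filters, scalings, weights, thinning depths, cell classes, limits, clusterings and correlations.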

Additional observations from a re-analysis of the deposited data

Results flagged for a closer look

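In 2 genes of the lists, the log2 ratio between the media (induction over expansion) had opposite signs in Xist cells and Y cells. For Surf4, which helps export cargo from the endoplasmic reticulum, it was 0.27 in Xist cells and -0.14 in Y cells. For Lpl it was 0.28 in Xist cells and -0.31 in Y cells. Neither difference was tested, all values lay within 2-fold, and sex cannot be told apart from animal.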

How the results depend on the processing

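The count of members at least 2-fold higher in induction medium was 6 under all alternatives but one: in Xist cells it was 7, with Apoe past the limit. The lowest and highest log2 ratios over 12 settings were 5.36 and 6.46 for Apoa2, 4.58 and 6.06 for Apoa4, 2.84 and 3.64 for Apoc3, 1.95 and 2.66 for Apoc1, 1.79 and 2.14 for Mttp, 1.51 and 2.00 for Apob, 0.71 and 1.19 for Apoe, and 0.43 and 0.74 for Apoa1. Apom spanned 0, from -0.21 without mitochondrial and ribosomal protein genes in the total to 0.45 in Xist cells. The setting without the 18 cells of high Apoc3 was chosen after seeing the data.

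List genes at least 2-fold lower numbered 2, and 4 without mitochondrial and ribosomal protein genes, 4 relative to the median gene, 1 in Xist cells and 0 at a fold of 3; the cause was not tested. List genes 2-fold higher numbered 24, and 16 at a fold of 3 and 32 without a minimum level. Of the members, 9 were found in a larger share of induction cells, and 5 without thinning, where expansion cells are deeper. Pairs of members with a correlation above 0.2 in the induction library numbered 14, and 22 at full depth. The share of all genes that were lower was 3.17%, and 4.89% among genes of at least 100 CPM. No paired analysis was possible because each medium has 1 library. Depth limits Apoa4, Apoa5 and the rarer list genes, most of all in the induction library.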
